A study of Mus musculus with 14 samples.

Results

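The cytosolic ribosome is built from ribosomal RNA and a fixed set of ribosomal proteins (RPs), most of them present once in each ribosome, and the mRNAs of these proteins were examined as a group in mouse embryonic stem cells (ESCs). Members were the protein-coding genes of the RNA-seq table whose symbol begins with Rpl or Rps followed by a number, together with Rplp0, Rplp1, Rplp2 and Rpsa, at a mean above 10 FPKM (fragments per kilobase of transcript, scaled to the number of fragments mapped) over the 8 RNA-seq samples. Of 83 genes with such a name, 82 passed that level, of 41204 gene identifiers in the table and 15430 with a mean above 0.2 FPKM. They comprised 33 genes of the small (40S) and 49 of the large (60S) subunit on 19 chromosomes, 4 of them on the X. The gene just outside the level was Rpl3l at a mean of 0.952 FPKM, and the members just inside were Rpl39l at 26.0 and Rpl10l at 60.2 FPKM.

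Poly(A) RNA of wild type ESCs and of Trincr1-ko ESCs, a knockout of the lncRNA Trincr1, had been sequenced in 2 media, with 2 samples in each of the 4 groups. All ESCs were of the cross C57BL/6(F) x 129/sv(M), at a labelled developmental stage of 3.5 days, and were grown without feeders in N2B27 with leukemia inhibitory factor (LIF) at 1000 units per ml and the MEK inhibitor PD0325901 at 1 µM. In 2i + LIF the medium also held the GSK3 inhibitor CHIR99021 at 3 µM, and in PD + LIF the cells were moved from 2i + LIF after 24 h to the medium without CHIR99021 for 4 days. In a second experiment, ESCs in 2i + LIF overexpressing 3XFLAG-tagged TRIM71, an RNA-binding protein, were crosslinked with UV light, RNA held by the tagged protein was collected with an antibody to the tag, and 1 value per transcript was deposited for pulldown and input. The labels call the replicates biological and name neither a knockout clone nor the line of the input, so p-values measure only the spread between these samples. With 2 samples against 2, an exact permutation test cannot give a two-sided p below 0.333, and single genes were therefore tested with limma across all 15430 genes, with Benjamini-Hochberg adjustment.

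RP mRNAs are among the most abundant in a growing cell, and their products are needed in fixed proportions, so their levels are usually kept close to each other. Many of them start with a run of pyrimidines, the terminal oligopyrimidine (TOP) motif, through which mTOR signaling and LARP1 control their translation and stability. A few RP genes have a second, related copy in the genome that is known to be used in particular tissues, such as Rpl10l and Rpl39l in the male germ line.

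The sequences of these copies matter for what follows, since reads must tell them from their partners. In the GENCODE M1 coding sequences, on the build NCBIM37, Rpl39l (chr16:10170319-10175004, plus strand, 3 exons) and Rpl39 (chrX:34622515-34625397, minus strand, 3 exons) were 156 bases long each and differed at 23 positions, which are printed in capitals.
Rpl39: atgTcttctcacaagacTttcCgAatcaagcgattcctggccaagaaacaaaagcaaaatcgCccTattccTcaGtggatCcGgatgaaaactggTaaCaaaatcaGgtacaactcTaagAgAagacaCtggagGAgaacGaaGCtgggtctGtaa
Rpl39l: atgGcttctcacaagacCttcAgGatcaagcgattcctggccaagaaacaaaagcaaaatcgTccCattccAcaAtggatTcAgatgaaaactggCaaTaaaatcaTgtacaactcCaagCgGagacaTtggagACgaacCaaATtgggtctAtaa
Rpl10l (chr12:67384368-67385388, minus strand, 1 exon) and Rpl10 (chrX:71516151-71518474, plus strand, 7 exons) shared 547 of 645 coding bases. The first 150 coding bases are shown, again with the differing bases in capitals.
Rpl10: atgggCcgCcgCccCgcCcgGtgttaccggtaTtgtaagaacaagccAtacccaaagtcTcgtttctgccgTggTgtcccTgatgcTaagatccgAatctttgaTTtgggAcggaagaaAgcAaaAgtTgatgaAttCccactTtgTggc
Rpl10l: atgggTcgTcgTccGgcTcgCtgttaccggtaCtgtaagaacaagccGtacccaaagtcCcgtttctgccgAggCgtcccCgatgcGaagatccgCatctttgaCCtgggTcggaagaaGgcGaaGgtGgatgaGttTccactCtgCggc
The longest identical run was 38 bases in the first pair and 23 in the second. Coding identity was 80.1% between Rps4l, an intronless gene on chromosome 6, and Rps4x, 74.6% between Rpl22l1 and Rpl22, 76.1% between Rps27l and Rps27, and 63.4% between Rpl7l1 and Rpl7.

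Facts of the whole series that bear on the members are brief. Depth was read from the spacing of low FPKM values as about 10300000 to 14100000 fragments per sample, and FPKM sums ranged from 497115 to 519651. Gm2694, the entry of Trincr1, in 2i + LIF was at 5.70 and 9.45 FPKM in wild type samples against 0.0754 and 0 FPKM in Trincr1-ko samples, and in PD + LIF at 6.18 and 6.56 against 1.38 and 0.746 FPKM. The 12 ESC markers summed to between 2117 and 2160 FPKM in 2i + LIF, to between 1581 and 1616 FPKM in wild type and between 1227 and 1262 FPKM in Trincr1-ko ESCs in PD + LIF. Trophoblast markers summed to between 29.0 and 32.3 FPKM in 2i + LIF, to between 175 and 183 in wild type and between 299 and 306 in Trincr1-ko ESCs in PD + LIF, while fibroblast markers summed to between 0.897 and 1.61 FPKM in 2i + LIF and between 10.7 and 19.1 FPKM in PD + LIF. Neural markers summed to between 8.53 and 10.4 FPKM in 2i + LIF and between 35.6 and 46.3 FPKM in PD + LIF, endoderm markers to between 6.29 and 6.80 and between 7.78 and 9.94 FPKM, and mesoderm markers to between 7.84 and 8.13 and between 4.78 and 6.57 FPKM. These values moved with medium, some also with genotype, and their part in the results on RP mRNAs was not tested. In bulk samples, fewer cells of a type and less RNA per cell cannot be told apart.

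RP mRNAs made up 20.8 to 23.0% of the FPKM sum of a sample. The members held 21.0% and 21.2% of the FPKM sum in wild type ESCs in 2i + LIF, 20.8% and 21.4% in Trincr1-ko ESCs in 2i + LIF, 22.7% and 23.0% in wild type ESCs in PD + LIF, and 21.7% and 21.6% in Trincr1-ko ESCs in PD + LIF. Both wild type samples in PD + LIF thus lay above the other 6 samples, among which the groups in 2i + LIF overlapped. As group means this was 22.9% ± 0.17 (SD, n = 2) against 21.1% ± 0.10 in wild type in 2i + LIF, 21.1% ± 0.41 in Trincr1-ko in 2i + LIF and 21.7% ± 0.077 in Trincr1-ko in PD + LIF. The sum of 40S mRNAs was 0.823 ± 0.0057, 0.830 ± 0.0050, 0.812 ± 0.0048 and 0.820 ± 0.0027 of the sum of 60S mRNAs in the same order of wild type and Trincr1-ko in 2i + LIF, then wild type and Trincr1-ko in PD + LIF. No test was made on these sums.

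**Figure D1:**
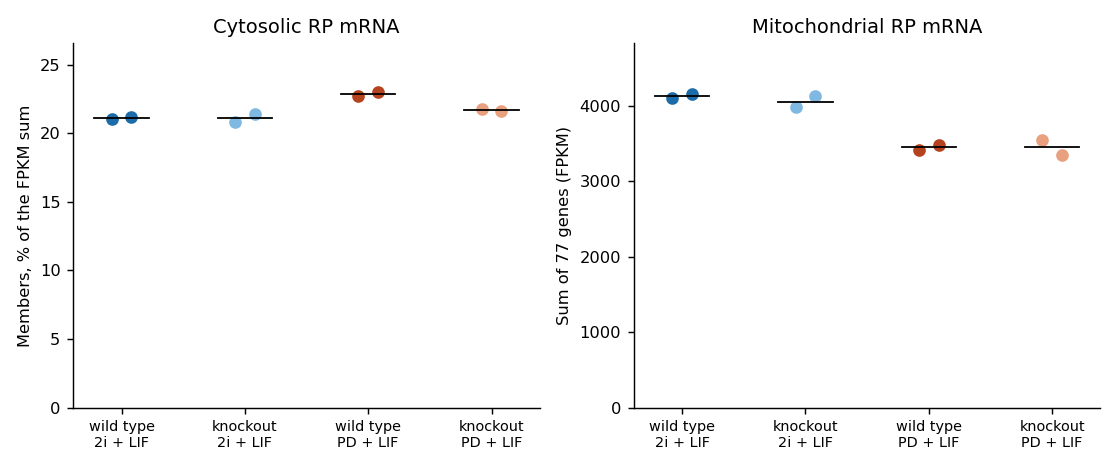
Left, share of the FPKM sum held by the 82 RP mRNAs (y axis, percent) in each of the 8 samples, and right, FPKM sum of 77 mitochondrial RP mRNAs, both by group on the x axis, with 1 point per sample and a line at the mean of 2. Cytosolic RP mRNAs reached 22.7% and 23.0% in wild type in PD + LIF and between 20.8% and 21.7% elsewhere, while the mitochondrial RP sum was lower in all 4 samples in PD + LIF.

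Levels differed between members, with 78 of 82 at a mean above 400 FPKM and the highest mean at 3540 FPKM. The highest by its mean over the 8 samples was Rplp1, a protein of the P stalk that recruits translation factors to the 60S subunit, at 3411 to 3727 FPKM in 2i + LIF and 3340 to 3562 FPKM in PD + LIF. For Rplp1 the media overlapped in Trincr1-ko but not in wild type ESCs. It was followed by Rpl13a at a mean of 3404 FPKM, which was above Rplp1 in 3 of the 4 samples in PD + LIF, then by Rps12 at 2934, Rps26 at 2814 and Rpl32 at 2690 FPKM. The top 5 together held 13.6 to 14.3% of the members' sum. The lowest 5 were Rps4l (mean 459 FPKM), Rpl22l1 (263), Rpl7l1 (99.0), Rpl10l (60.2) and Rpl39l (26.0). By name and coding sequence all 5 were related to another RP gene, and such genes are called second copies here. Rpl7l1 was the least alike its partner, at 63.4% coding identity, and whether its product can stand in for Rpl7 was not tested. The sixth such copy, Rps27l, stood at rank 76 with 501 FPKM. Replicates agreed closely, with a median SD of 0.043 on the log2 scale over members against 0.050 over 697 other genes above 100 FPKM and 0.11 over all genes tested. The largest replicate SD among members was 0.24, for Rpl10l.

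**Figure D2:**
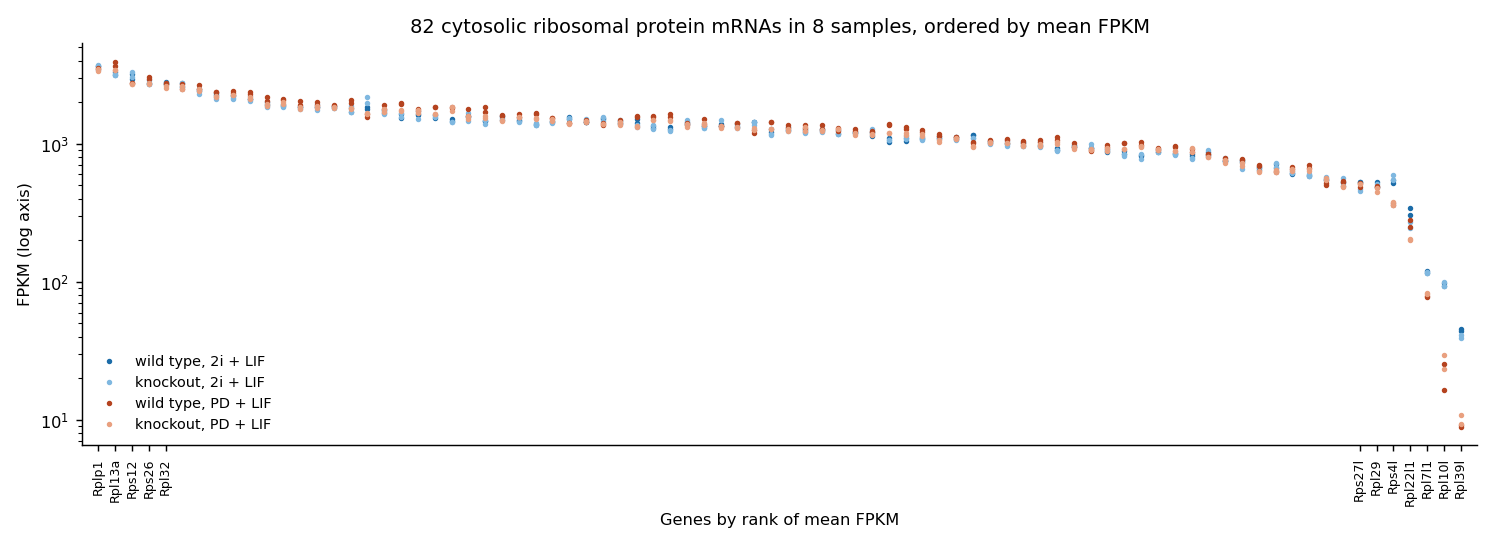
FPKM of each of the 82 members (log y axis) in the 8 samples, coloured by group, with genes on the x axis ordered by mean FPKM and the 5 highest and 7 lowest named. Of these genes 78 have a mean above 400 FPKM, and at the right end the samples in PD + LIF of Rpl7l1, Rpl10l and Rpl39l lie below those in 2i + LIF.

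The medium comparison asked what happens to these mRNAs when the GSK3 inhibitor is taken away for 4 days. In wild type ESCs 24 of 82 members rose and 12 fell, against 30.9% higher and 21.3% lower among all genes tested. In Trincr1-ko ESCs 13 rose and 14 fell, against 29.6% higher and 20.3% lower among all genes. As shares, 29.3% of members rose and 14.6% fell in wild type, and 15.9% rose and 17.1% fell in Trincr1-ko ESCs. None of these shares was above that of all genes tested, which did not hold under other scalings. The median log2 fold change of members was 0.07 in wild type and −0.00092 in Trincr1-ko ESCs, beside 0.08 and 0.07 over all genes tested. Among the 697 other genes above 100 FPKM the medians were −0.22 and −0.15, and 58.8% and 51.4% of those genes fell. A log2 change within 0.25 of 0 was found for 68 of 82 members in wild type and 75 of 82 in Trincr1-ko ESCs, and for 39.6% and 49.9% of the other genes above 100 FPKM.

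**Figure D3:**
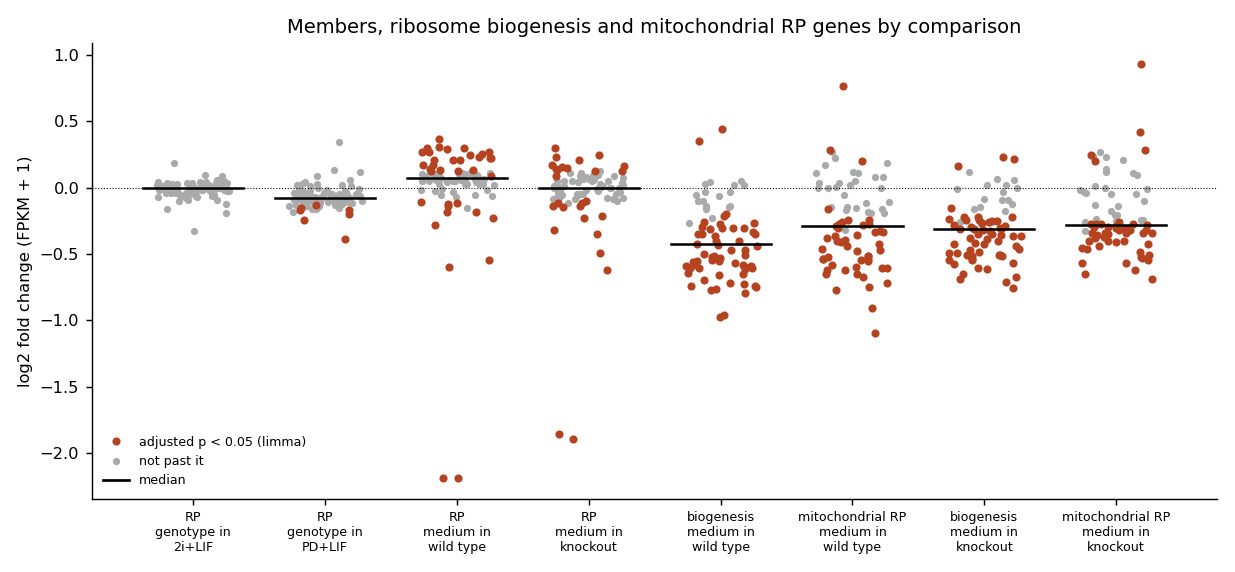
Log2 fold change of FPKM + 1 (y axis) for each RP gene in the 4 comparisons, and for ribosome biogenesis and mitochondrial RP genes in the comparisons of medium, with red points past an adjusted p of 0.05 (limma), gray points not past it and lines at medians. RP genes sit around 0 except for a few second copies, down to −2.19, while the medians of biogenesis genes are at −0.43 and −0.31 and those of mitochondrial RP genes at −0.29 and −0.28.

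The counts depended on scaling and on the variance model. Without a variance trend 15 members (18.3%) rose and 6 (7.32%) fell in wild type, against 30.6% and 20.3% of all genes, and in Trincr1-ko ESCs 3 (3.66%) rose and 7 (8.54%) fell, against 29.1% and 18.9%. Without a filter on low values the same counts of 15 and 6 in wild type stood against 8.90% and 6.02% of 41204 genes, and those of 4 (4.88%) and 6 in Trincr1-ko ESCs against 8.79% and 5.65%. Leaving out Trincr1-ko replicate 1 or 2 in PD + LIF left 12 and 14 calls in Trincr1-ko ESCs. With each sample set to the same FPKM sum, 48 members (58.5%) were higher and 8 (9.76%) lower in wild type, against 32.6% and 19.6% of all genes tested under that scaling, and in Trincr1-ko ESCs 26 (31.7%) and 9 (11.0%), against 31.4% and 18.7%. With the members left out of that sum, 57 members (69.5%) were higher and 6 (7.32%) lower in wild type, against 34.4% and 18.4% of all genes, and in Trincr1-ko ESCs 28 (34.1%) and 9, against 31.9% and 18.2%. With quantile normalization 33 members (40.2%) were higher and 10 (12.2%) lower in wild type, against 24.6% and 25.6%, and in Trincr1-ko ESCs 27 (32.9%) and 9, against 23.2% and 24.9%. Quantile normalization moved the median of all genes from 0.08 to −0.02 in wild type and from 0.07 to −0.03 in Trincr1-ko ESCs, and the median of members was then 0.07 and 0.03.

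The members that fell most in PD + LIF were second copies. Rpl10l, whose product can replace the 60S protein Rpl10 at the tRNA-binding face of the ribosome, was at 98.9 and 93.9 FPKM in wild type ESCs in 2i + LIF and at 25.3 and 16.4 FPKM in PD + LIF. In Trincr1-ko ESCs it was at 93.7 and 100.4 FPKM in 2i + LIF and at 23.2 and 29.3 FPKM in PD + LIF. The media did not overlap in either genotype, a condition for naming that 76.4% of all genes met in wild type and 74.5% in Trincr1-ko ESCs. The log2 fold change of Rpl10l was −2.19 (SE 0.19, adjusted p = 9.39e-05) in wild type and −1.85 (SE 0.19, adjusted p = 0.000198) in Trincr1-ko ESCs. Rpl39l, the copy of a small protein that lines the exit tunnel for the nascent peptide, went from 45.6 and 44.1 FPKM to 8.87 and 9.28 FPKM in wild type, and from 39.1 and 41.0 FPKM to 9.38 and 10.8 FPKM in Trincr1-ko ESCs. All 4 samples in PD + LIF were below all 4 in 2i + LIF, with log2 fold changes of −2.19 (SE 0.076, adjusted p = 4.96e-06) and −1.89 (SE 0.076, adjusted p = 4.17e-06). These were the 2 members past the study's rule of a ratio of means above 2, lower in both genotypes, against 4.36% of genes tested in wild type and 4.72% in Trincr1-ko ESCs.

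Smaller falls were found for Rpl7l1, Rps4l and Rpl22l1. Rpl7l1 was at 116 to 120 FPKM in the 4 samples in 2i + LIF and in PD + LIF at 77.3 and 78.5 FPKM (wild type) or 82.4 and 83.2 FPKM (Trincr1-ko) (log2 fold change −0.60, SE 0.038, in wild type and −0.49, SE 0.038, in Trincr1-ko). Rps4l was at 521 and 544 FPKM (wild type) or 548 and 590 FPKM (Trincr1-ko) in 2i + LIF, and at 359 and 371 or 380 and 358 FPKM in PD + LIF (log2 fold change −0.54, SE 0.051, and −0.62, SE 0.051). Rpl22l1 fell from 345 and 304 to 283 and 250 FPKM in wild type (log2 fold change −0.28, SE 0.080, adjusted p = 0.0207) and from 269.3 and 247 to 201 and 205 FPKM in Trincr1-ko ESCs (−0.35, SE 0.080, adjusted p = 0.00933). The last of the copies went another way, since Rps27l did not pass the test in wild type (log2 fold change −0.07, SE 0.043, adjusted p = 0.219) and was higher in PD + LIF in Trincr1-ko ESCs (0.14, SE 0.043, adjusted p = 0.029).

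The partners did not fall as far, and some rose. Rpl10 was at 1513 to 1555 FPKM in 2i + LIF and 1394 to 1415 FPKM in PD + LIF, a log2 fold change of −0.12 (SE 0.029) in wild type and −0.11 (SE 0.029) in Trincr1-ko ESCs, both past the threshold. Rpl39 was at 581 to 605 FPKM in 2i + LIF and 638 to 696 FPKM in PD + LIF and rose by 0.20 (SE 0.040) and 0.13 (SE 0.040) on the log2 scale. Rpl22 rose by 0.30 (SE 0.035) and 0.24 (SE 0.035). For Rps4x, Rpl7 and Rps27 no change passed the threshold, with log2 fold changes of 0.11, 0.06 and 0.03 in wild type and −0.0089, −0.0090 and 0.02 in Trincr1-ko ESCs. As a share of the FPKM of the pair, Rpl10l went from 5.91% ± 0.31 (SD, n = 2) to 1.46% ± 0.43 in wild type, and Rpl39l from 7.07% ± 0.29 to 1.32% ± 0.0037. The share of Rps4l in its pair was 26.7% ± 0.39 against 18.8% ± 0.23, and that of Rpl7l1 8.04% ± 0.13 against 5.24% ± 0.052.

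**Figure D4:**
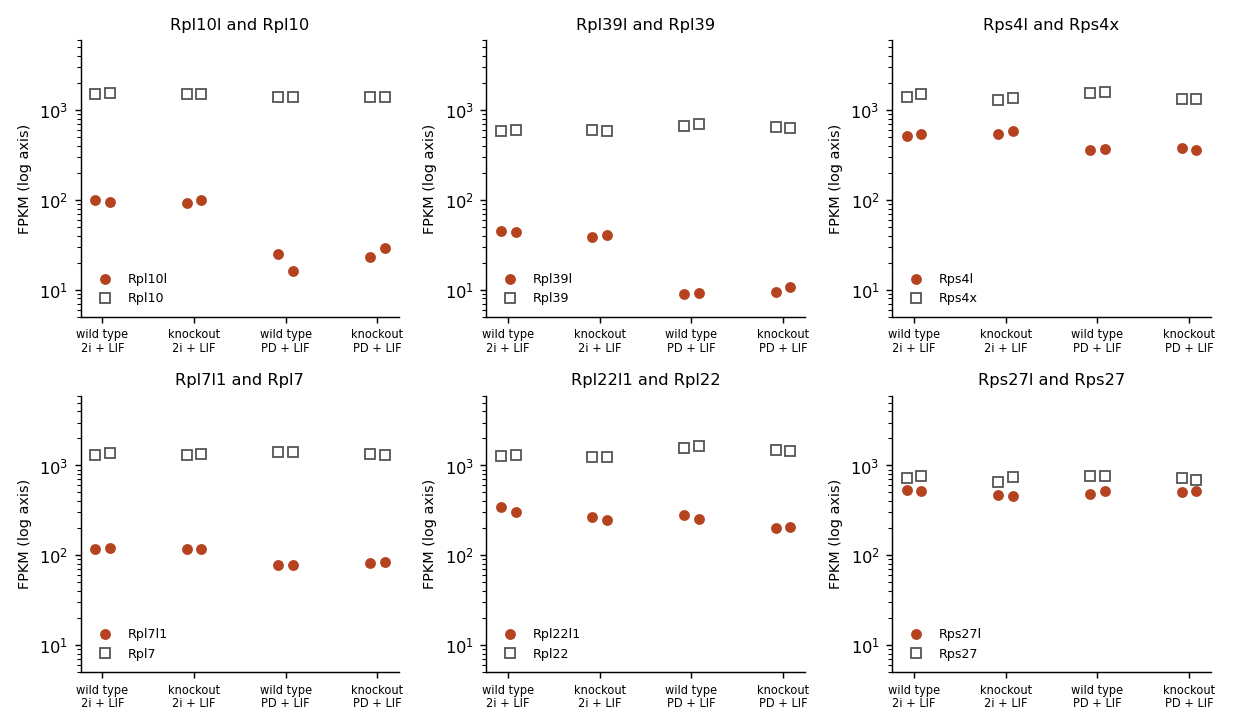
FPKM (log y axis) of 6 second copies (filled circles) and their partners (open squares) in each sample, with the 4 groups on the x axis. Rpl10l and Rpl39l lie between 39.1 and 100.4 FPKM in 2i + LIF and between 8.87 and 29.3 FPKM in PD + LIF, while Rpl10 lies between 1394 and 1555 FPKM and Rpl39 between 581 and 696 FPKM in all 8 samples.

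Without the 6 copies, 24 of 76 members rose and 7 fell in wild type, with log2 fold changes from −0.23 to 0.37, and 12 rose and 9 fell in Trincr1-ko ESCs, from −0.32 to 0.30. The largest rises in wild type were of Rpl17, a protein at the rim of the exit tunnel, from 1033 and 1093 to 1357 and 1385 FPKM (log2 fold change 0.37, SE 0.035, adjusted p = 0.000167), and of Rps19, a head protein of the 40S subunit mutated in Diamond-Blackfan anemia, from 1462 and 1509 to 1814 and 1857 FPKM (0.31, SE 0.038, adjusted p = 0.000524). Rpl22 (0.30) and Rpl26 (0.29) were also among the 5 largest. In Trincr1-ko ESCs the 5 largest rises included those of Rps19, from 1444 and 1444 to 1834 and 1728 FPKM (0.30, SE 0.038, adjusted p = 0.000569), Rpl22 (0.24), Rpl35 (0.21) and Rpl17 (0.17). Among the other members that fell were Rplp0, the base of the P stalk, from 1442 and 1427 to 1196 and 1254 FPKM in wild type (log2 fold change −0.23, SE 0.039, adjusted p = 0.00215) and Rps29, a zinc-binding protein of the 40S subunit, from 1978 and 2175 to 1638 and 1683 FPKM in Trincr1-ko ESCs (−0.32, SE 0.052, adjusted p = 0.0018). Rpl24 fell in both, by 0.18 and 0.21 on the log2 scale.

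The members were then read by place in the ribosome and by disease, to be set against the shares of all genes tested that rose, 30.9% in wild type and 29.6% in Trincr1-ko ESCs. In these lists 6 of 8 proteins of the peptide exit tunnel and its rim rose in wild type and 3 of 8 in Trincr1-ko ESCs, with none lower, at medians of 0.20 and 0.08. That list of 8 does not hold Rpl39l, which fell in both genotypes, so its lack of falls depends on the choice of genes. Of the proteins that form the 5S ribonucleoprotein or bind Mdm2, Rpl5 and Rpl23 rose in both genotypes and Rpl11 did not pass the test. Of 4 proteins at the mRNA entry and decoding site 2 rose in wild type and 1 in Trincr1-ko ESCs. Of 7 proteins listed for the 40S beak and head, a list without Rps29, 2 rose in wild type, and in Trincr1-ko ESCs 1 rose and 1, Rps12, fell. Of the 3 P stalk mRNAs only Rplp0 passed the test. Of 9 listed genes mutated in Diamond-Blackfan anemia 4 rose in wild type and 2 in Trincr1-ko ESCs, with medians of 0.11 and 0.07. The list of 9 is a selection without Rps29, which fell in both genotypes, and Rpl15, which fell in wild type. Of the 4 X-linked members Rpl39 rose and Rpl10 fell in both genotypes, while Rps4x and Rpl36a did not pass the test. Several of these counts, such as 3 of 8, 1 of 4, 2 of 7 and 2 of 9, are near the share of all genes.

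Genes of ribosome assembly and of the mitochondrial ribosome were listed beside the members, without a test of the difference. Of all genes tested 21.3% fell in wild type and 20.3% in Trincr1-ko ESCs, and of other genes above 100 FPKM 58.8% and 51.4%. Of 74 ribosome biogenesis genes tested, which encode subunits of RNA polymerase I and the factors that process rRNA in the nucleolus, 55 fell and 2 rose in wild type and 54 fell and 3 rose in Trincr1-ko ESCs, at median log2 fold changes of −0.43 and −0.31. Imp4, a subunit of the complex that cleaves the rRNA precursor, went from 60.2 to 30.3 FPKM in wild type (log2 fold change −0.98, SE 0.13), Nop2, an rRNA methyltransferase, from 112 to 57.4 FPKM (−0.96, SE 0.045) and Heatr1 from 43.0 to 24.3 FPKM (−0.79, SE 0.059). Of 77 mitochondrial RP genes, whose products form the ribosome of mitochondria, 45 (58.4%) fell and 3 rose in wild type and 43 fell and 5 rose in Trincr1-ko ESCs, with medians of −0.29 and −0.28. Under the other scalings between 50 and 54 biogenesis genes and between 40 and 44 mitochondrial RP genes fell in either genotype. Of 24 translation factors and other mRNAs of the TOP class 6 rose and 8 fell in wild type and 4 rose and 6 fell in Trincr1-ko ESCs. In wild type Vim, an intermediate filament, fell from 188 to 84.1 FPKM, Eif4a1, an RNA helicase of initiation, fell from 1011 to 730 FPKM, and Eef2, the elongation factor of translocation, rose from 982 to 1537 FPKM. Of 23 regulators of RP mRNAs 6 rose and 7 fell in wild type and 4 rose and 3 fell in Trincr1-ko ESCs, which is 26.1% and 30.4%, then 17.4% and 13.0% of the list. In wild type Myc went from 8.98 to 3.78 FPKM and Mycn from 39.9 to 60.2 FPKM.

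The comparison of genotypes asked whether loss of Trincr1 alters RP mRNAs. In 2i + LIF limma called 0 of 82 members, against 0.350% of genes tested that were higher and 0.855% lower. The median log2 fold change of members was −0.0068, and values ran from −0.33 for Rpl22l1 (SE 0.080, adjusted p = 0.129) to 0.18 for Rps29 (SE 0.052, adjusted p = 0.172). For 81 of 82 members the change was within 0.25 of 0, as it was for 96.1% of the 697 other genes above 100 FPKM.

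In PD + LIF 7 members were lower in Trincr1-ko ESCs and 0 higher, against 5.77% of genes tested lower and 6.29% higher. Members called lower were thus 8.54% of the members. Among the 697 other genes above 100 FPKM, 11.6% were lower and 20.4% higher. A log2 change within 0.25 of 0 was found for 80 of 82 members and 79.3% of those other genes. The median log2 fold change was −0.08 against 0.01 over all genes tested and 0.05 over the other genes above 100 FPKM, and 70 of 82 members were below 0 against 47.7% of all genes. The 40S and 60S medians were −0.07 and −0.08. The largest fall was of Rpl22l1, with 283 and 250 FPKM in wild type against 201 and 205 FPKM in Trincr1-ko samples (log2 fold change −0.39, SE 0.080, adjusted p = 0.0254). Rps4x, an X-linked 40S protein, was at 1567 and 1586 against 1342 and 1321 FPKM (−0.24, SE 0.042, adjusted p = 0.0146). Rpl17 was at 1357 and 1385 against 1194 and 1197 FPKM (−0.20, SE 0.035, adjusted p = 0.0166), and Rpl4, a protein of the tunnel wall, at 1839 and 1840 against 1642 and 1636 FPKM (−0.17, SE 0.038, adjusted p = 0.0335). The samples of the 2 genotypes did not overlap for any of these, which was a condition for naming them. The same held for 57.7% of all genes tested and for 56 of 82 members. The other members called lower were Rpl9 (−0.17, SE 0.035, adjusted p = 0.0265), Rpl30 (−0.16, SE 0.032, adjusted p = 0.0245) and Rpl12 of the base of the stalk (−0.13, SE 0.033, adjusted p = 0.046).

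These 7 calls rested on few samples. Leaving out wild type replicate 1 or either Trincr1-ko replicate in PD + LIF left 0 calls, and leaving out wild type replicate 2 left 1. With 2 groups alone in the fit there were 0. Without the variance trend there were also 0, against 4.65% of all genes lower and 4.28% higher. Without a filter on low values the 0 calls stood against 0.857% lower and 0.910% higher, so they are near that share. With a common FPKM sum 15 members (18.3%) were lower, against 5.52% of all genes tested, with that sum taken without the members 21 (25.6%), against 6.28%, and with quantile normalization 6 (7.32%) were lower and 2 (2.44%) higher, against 6.23% and 6.40%. In the test of whether the genotype effect differed between media, 0 members passed, against 0.992% of genes tested higher and 0.817% lower. The median of that difference was −0.07 over members and 0.0088 over all genes.

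In PD + LIF 11 of 74 ribosome biogenesis genes were higher in Trincr1-ko ESCs and 0 lower, among them Nop2, from 57.4 to 70.9 FPKM (log2 fold change 0.30, SE 0.045, adjusted p = 0.00875). Set against 6.29% higher and 5.77% lower of all genes, 3 mitochondrial RP genes (3.90%) were higher and 4 (5.19%) lower, of the TOP class 3 higher and 2 lower, and of the regulators 3 higher and 1 lower. The largest changes among the regulators were of Myc, with means of 3.78 FPKM in wild type against 9.63 FPKM in Trincr1-ko ESCs (1.14, SE 0.18, adjusted p = 0.00975), Larp1b, a relative of Larp1, which was lower, and Mycn, which was higher. In 2i + LIF no gene of these 4 lists passed the test.

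The starts of the genes were then read for CTTTC, a short run of pyrimidines, which is not by itself a TOP motif. RefSeq start-site windows on GRCm38.p6, 250 bases before to 50 after each start, were found for 61 of the 82 members by symbol and for 27025 symbols in all. The letters CTTTC lay on the sense strand within 10 bases before to 40 after a start in 23 of the 61 members (37.7%) and in 7.07% of all symbols, and on the opposite strand in 9.84% and 7.63%. In the stretches below, which cover 10 bases before to 20 after the start, CTTTC is in capitals. They show 4 members with the letters in the stretch, of high and low FPKM, and 3 without. In Rpl39l the letters lie wholly before the annotated start, so outside the annotated transcript. Whether any of these mRNAs starts with a TOP motif was not tested.
Rplp2 (chr7:141447641-141447670, plus strand): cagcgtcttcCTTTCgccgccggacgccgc
Rpl35 (chr2:39005112-39005141, minus strand): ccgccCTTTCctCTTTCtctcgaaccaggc
Rps10 (chr17:27635225-27635254, minus strand): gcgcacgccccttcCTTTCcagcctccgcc
Rpl39l (chr16:10170218-10170247, plus strand): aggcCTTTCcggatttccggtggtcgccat
Rpl39 (chrX:37085203-37085232, minus strand): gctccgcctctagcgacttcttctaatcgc
Rpl10l (chr12:66284382-66284411, minus strand): cctccattttgcggctggcggtgggcacgc
Rpl10 (chrX:74270806-74270835, plus strand): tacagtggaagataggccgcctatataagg
On either strand of the whole window, CCGGAAG, the core of sites for Gabpa and other ETS factors, was found in 26 of 61 members (42.6%) and 9.93% of all symbols, AAGATGG, the core of sites for Yy1, in 16.4% and 7.28%, and TATAAA in 7 of 61 members and 15.7% of all symbols. The motifs were counted one by one, so a base may belong to more than 1 of them, and a match is a description of letters only.

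The pulldown asked which RNAs are held by FLAG-TRIM71. Of the 82 members 80 were listed by gene identifier in its table of 14054 transcripts, all but Rpl41 and Rpl24. A fold of enrichment was the authors' scaled pulldown value over input, where the scaling multiplies the pulldown by 2.25. There was 1 value per transcript, so no fold has an error or a test, and the pulldown from ESCs with an empty vector is not used here. Input RNA had been poly-T selected as in RNA-seq, per the labels, while pulled down RNA was turned into cDNA directly, so each fold also compares 2 library preparations. The ESCs overexpressed the tagged protein, and the labels do not say whether the input came from those cells.

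RP mRNAs held 28.4% of the FPKM sum of the input and 30.4% of that of the pulldown. Their median fold was 0.447, with quartiles of 0.230 and 0.837, and 63 of 80 were below 1. Other transcripts with an input above 100 FPKM had a median of 0.261 (733 transcripts), and all transcripts with an input above 2 FPKM one of 0.0571. The medians of 40S and 60S members were 0.462 and 0.443. Mitochondrial RP transcripts had a median of 0.129 and ribosome biogenesis transcripts one of 0.201. Listed at 0 in the pulldown were 40.8% and 27.4% of these, and 46.4% of all transcripts with an input above 2 FPKM. Of members it was 1.25%, so these medians also reflect values of 0 at low input. With 1 FPKM added to both scaled values the median was 0.237 for all transcripts with an input above 2 FPKM and 0.448 for members. Over the 80 members the fold had a Spearman correlation of −0.11 with input, −0.15 with transcript length and 0.18 with GC content, given as descriptions, since the fold has input as its denominator and all members share both libraries.

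A fold above 3 was reached by 4 of 80 members (5%), beside 5.10% of all transcripts with an input above 2 FPKM, a share near the background. The methods describe a scaling to the average of all transcripts, and with the means of both libraries set equal, a factor of 3.31, the median was 0.660 and 8 members (10%) were above 3, beside 7.79% of all transcripts. With the deposited scaling and an input above 100 FPKM the shares were 4 of 77 members (5.19%) and 11 of 733 other transcripts (1.501%). The 4 were Rps10, a protein of the 40S beak, at 1483 FPKM in the input and 9029 scaled FPKM in the pulldown (fold 6.09), Rpl27 at 1062 and 5041 (4.75), Rpl12 at 2156 and 9548 (4.43) and Rps19 at 1971 and 6320 (3.21). Rpl12 and Rps10 ranked 2 and 3 among all transcripts listed by unscaled FPKM in the pulldown. Next came Rpl10 (2.63), Rpl22 (2.60) and Rps12 (2.56). At the low end were Rpl39l, listed at 0 in the pulldown with an input of 9.4 FPKM, Rpl39 at 1047 and 51.0 (0.0487), Rpl14 at 2801 and 257.9 (0.0921), Rpl17 at 2930 and 308.8 (0.105), Rplp2 at 3138 and 338 (0.108) and Rpl5 at 1128 and 156.8 (0.139). Folds within 1 complex thus spread widely, since in the P stalk Rplp1 was at 1.57, Rplp0 at 0.274 and Rplp2 at 0.108. Among the second copies the fold was below that of the partner for Rpl22l1 (1.78 against 2.60), Rpl10l (0.756 against 2.63), Rpl7l1 (0.279 against 0.645), Rps27l (0.167 against 0.462) and Rpl39l, and above it for Rps4l (0.664 against 0.267).

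**Figure D5:**
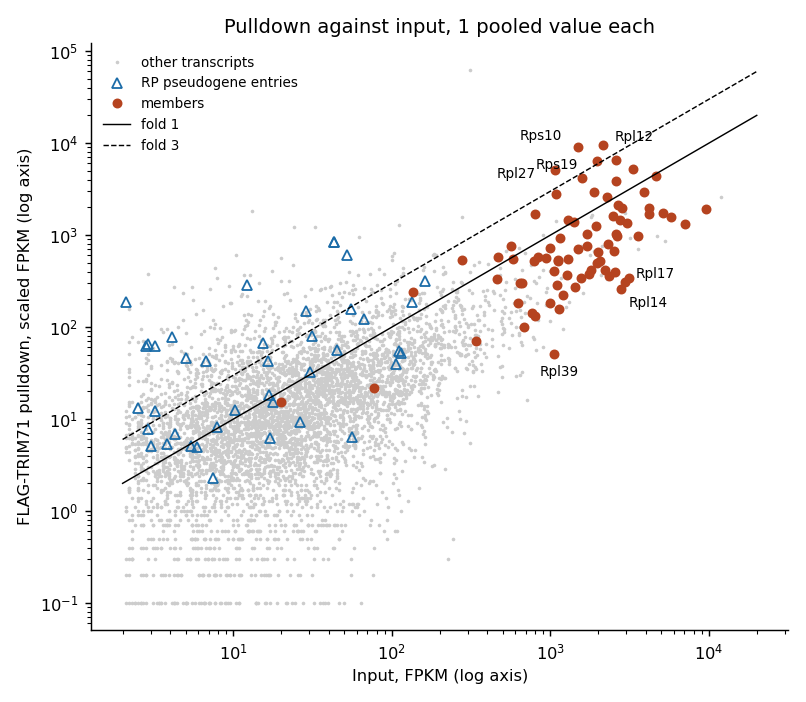
Scaled pulldown FPKM (log y axis) against input FPKM (log x axis) for transcripts with an input above 2 FPKM and a pulldown above 0, with members in red, RP pseudogene entries as blue triangles and other transcripts in gray. Most members lie below the line of fold 1, and Rps10, Rpl27, Rpl12 and Rps19 lie above the dashed line of fold 3.

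The RNA-seq values of these 4 mRNAs in the 2 genotypes were close. In 2i + LIF the log2 fold change of Trincr1-ko against wild type was 0.0027 for Rps10, −0.05 for Rpl27, 0.02 for Rpl12 and −0.04 for Rps19, none past the threshold. In PD + LIF it was −0.09, −0.08, −0.13 and −0.04, of which only that of Rpl12 passed.

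Many RP genes have processed copies in the genome, and the reads of a member and of such a copy cannot always be told apart. The values of members with such copies are therefore uncertain in both tables. In RNA-seq, 245 RP pseudogene entries summed to 0.907 to 1.02% of the members' sum. In the pulldown, 83 were listed, 40 of them at 0 in the pulldown. Entries that had a member as parent and an input above 2 FPKM numbered 60, for 35 parents, and their fold had a Spearman correlation of 0.56 with that of the parent, a description of entries that share sequence with it. Of 16 entries whose parent had a fold above 1, 9 were above 3 and 1 was at 0 in the pulldown, and of 44 others 5 were above 3 and 20 at 0. Beside these, 5.10% of all transcripts with an input above 2 FPKM were above 3 and 46.4% at 0, so the 20 of 44 are near that share. The copies of Rps19 and Rps10 were highest among those with an input above 10 FPKM. Rps19-ps1 and Rps19-ps2 were at 43.2 and 42.8 FPKM in the input, both at 369.7 unscaled FPKM in the pulldown, and had folds of 19.2 and 19.4 against 3.21 for Rps19, and Rps10-ps1 was at 12.2 and 128 (fold 23.6) against 6.09 for Rps10. Of the 60 entries 34 had a higher fold than their parent, and 21 were at 0 in the pulldown. The 34 included these 3 copies and Rpl38-ps2 (11.499 against 0.992 for Rpl38). The fold of Rpl14-ps1 (0.114) was near that of Rpl14 (0.0921).

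How alike these copies are is shown by coding bases 61 to 150 of each parent and the aligned bases of the copy in NCBIM37, with differing bases in capitals.
Rps19: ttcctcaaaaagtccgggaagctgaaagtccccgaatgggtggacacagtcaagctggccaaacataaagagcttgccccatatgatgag
Rps19-ps1 (chr14:53833465-53833554, plus strand): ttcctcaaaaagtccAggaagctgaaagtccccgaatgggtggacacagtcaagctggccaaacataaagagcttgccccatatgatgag
Rps19-ps2 (chr14:53522528-53522617, plus strand): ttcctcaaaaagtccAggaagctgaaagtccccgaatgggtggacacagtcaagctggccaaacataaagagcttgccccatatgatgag
Rps10: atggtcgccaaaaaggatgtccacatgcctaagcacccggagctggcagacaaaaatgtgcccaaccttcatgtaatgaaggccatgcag
Rps10-ps1 (chr3:95426260-95426349, plus strand): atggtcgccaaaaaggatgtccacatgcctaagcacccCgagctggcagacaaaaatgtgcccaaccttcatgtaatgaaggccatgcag
Over the whole aligned stretch Rps19-ps1 and Rps19-ps2 each matched the Rps19 transcript at 447 of 456 bases (98.0%) with an identical run of 153 bases, and Rps10-ps1 matched at 515 of 521 bases (98.8%) with a run of 133.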

How the data were processed

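Poly(A) RNA-seq and FLAG-TRIM71 RIP-Seq of mouse ESCs were analysed from deposited tables. Per the processing notes and methods, the authors aligned reads with STAR 2.5.0 to mm9 with GENCODE annotation and quantified them with Cufflinks 2.2.1. The authors deposited normalized FPKM values per gene and sample, whose coordinates are those of GRCm38, and for the RIP-Seq FPKM values per transcript, 1 for input and 1 for pulldown, with a scaled pair, a signal that the authors obtained by multiplying FPKM by a constant. The deposited fold of enrichment (a ratio) was not used, and folds were recomputed from the scaled values. Whether those combine both replicates is not given in the sources used here. Neither table holds read counts, and the depth of the RIP-Seq libraries is unknown.

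Of 41260 entries, 39 identifiers occurred more than once, of which the one highest on average was used. Genes with a mean above 0.2 FPKM were compared as log2(FPKM + 1) with limma 3.58.1 in R 4.3.3, with 4 groups in 1 fit and a variance trend, and p-values were adjusted by Benjamini-Hochberg at a threshold of 0.05. Fold changes on the scale of FPKM + 1 understate changes of low genes. Genes named are the 5 largest rises and falls past the threshold without overlap of replicates, the extremes of level and of fold, and members of gene lists, of which at most 3 are named where a list holds no member. Rpl24, Rpl30, Rps29 and the pseudogene entries lie outside this rule and were chosen with their values in view, and 1 gene that the rule names is not reported here. The members and lists were chosen with earlier results of these data known, and the mitochondrial RP list was taken by name. The fit was tested on simulated data. Coding sequences came from GENCODE M1 on NCBIM37 and start windows from RefSeq on GRCm38.p6. Replicate numbers did not pair the samples. Alternatives for pseudocount, filter, scaling, variance model, samples fitted, replicate block and samples left out were tried. Data were handled with Python 3.11.15, pandas 2.3.3 and numpy 2.4.6.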

Additional observations from a re-analysis of the deposited data

How the results depend on the processing

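The fall of Rpl10l, Rpl39l, Rpl7l1 and Rps4l in PD + LIF passed the threshold in both genotypes under all 18 alternatives, while that of Rpl22l1 passed under 10 in wild type and 14 in Trincr1-ko ESCs. Of 27 pairs of a member and a comparison named by the rule, 0 changed sign. In 2i + LIF, and in the difference between media, 0 members were called under every alternative run. Members called by genotype in PD + LIF numbered 0 with no filter, no variance trend or only the groups compared, 13 at a mean above 1 FPKM, 15 with a common FPKM sum, 21 with that sum without the members, and 0 to 7 on leaving out 1 sample. By medium in wild type they numbered 21 with no filter, 21 with no trend, 56 and 63 with the common sums, and 26 to 37 on leaving out 1 sample, and in Trincr1-ko ESCs 10 with no filter, 10 with no trend and 12 to 25 on leaving out 1 sample, the fewest without Trincr1-ko replicate 1 in PD + LIF. The 13 members called by genotype in PD + LIF at a mean above 1 FPKM were 15.9%, against 7.54% lower of the 12063 genes then tested. The cause of the differences between settings was not tested.

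The median log2 fold change of members moved with quantile normalization to −0.0248 by genotype in PD + LIF, −0.0297 for the difference between media and 0.0326 by medium in Trincr1-ko ESCs, and with the common sums to 0.11 and 0.14 by medium in wild type and 0.0351 and 0.0454 in Trincr1-ko ESCs. Leaving out 1 sample gave medians from −0.0360 to 0.0253 by genotype in 2i + LIF, −0.10 to −0.06 in PD + LIF, −0.0948 to −0.0371 for the difference, 0.05 to 0.09 by medium in wild type and −0.0383 to 0.0347 in Trincr1-ko ESCs. A ratio of means above 1.2 instead of 2 was passed by 1 member by genotype in 2i + LIF, 2 in PD + LIF, and by medium by 13 in wild type and 7 in Trincr1-ko ESCs. Of the 15430 genes tested, 1258 were then higher and 1358 lower by genotype in 2i + LIF, and 2208 and 2237 in PD + LIF. By medium 4603 genes were higher and 3358 lower in wild type, and 4360 and 3141 in Trincr1-ko ESCs. The median fold in the pulldown was 0.199 with unscaled FPKM, 0.660 with means set equal and 0.902 with means set equal without the 100 highest transcripts, where 0, 8 and 13 members were above 3.

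With the replicate block, 6 members (7.32%) were lower by genotype in PD + LIF, against 4.16% of all genes tested. By medium in wild type 23 of 82 members were higher and 12 (14.6%) lower, against 29.7% and 20.7% of all genes. In Trincr1-ko ESCs 12 were higher and 12 lower (14.6% each), against 28.3% and 19.6%. Of these shares of members, only that by genotype in PD + LIF was above the share of all genes. In 2i + LIF and for the difference 0 members were called. Deviations of samples with the same number correlated between −0.05 and 0.0063 over all genes, so the numbers gave no pairing. Over members alone the correlation between wild type and Trincr1-ko in PD + LIF was −0.68. The replicate SD was highest for Rpl10l, among the lowest members, and 2 samples per group limit all tests.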
